A study of Mus musculus with 6 samples.

Results

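Of 46603 genes counted in CD11B+ kidney cells, 9 genes of the complement system were followed here. They are C1qa, C1qb and C1qc, C3, Cfb and Cfp, and the receptor genes C3ar1, C5ar1 and C5ar2, taken from the count table by gene symbol. All 9 were found and all 9 passed the filter on low counts, which left 15440 genes for testing. RNA-Seq had been performed on cells carrying CD11B, the integrin alpha M chain of myeloid cells, captured with magnetic beads from kidneys of male mice aged 10 to 12 weeks. The kidneys were collected on day 3 after bilateral ischemia-reperfusion injury (IRI-AKI), in which both renal pedicles had been clamped for 28 minutes. The 3 PTEC DN RAR mice carried PEPCK CRE and Rosa26-LSL-RARaT403X, an allele for a truncated, dominant negative retinoic acid receptor that Cre switches on. The 3 Cre- control mice carried the same Rosa26-LSL-RARaT403X allele without Cre. PEPCK-Cre acts in proximal tubule epithelial cells (PTECs), so the allele was recombined in the tubule and not by design in the CD11B+ cells that were sequenced. The PEPCK-Cre line had a mixed strain background, and per the paper the dominant negative allele was bred to homozygosity for the PTEC DN RAR mice. Each mouse gave 1 library, so each value has 3 replicate mice per genotype.

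Complement is a protease cascade of plasma and tissue that tags injured cells and microbes. In the classical pathway C1q, built of the chains encoded by C1qa, C1qb and C1qc, binds its target and starts the cleavage of C3. In the alternative pathway factor B forms the C3-cleaving enzyme, and properdin, encoded by Cfp, stabilizes it. The small fragments C3a and C5a released on the way act as anaphylatoxins on cell surface receptors, C3a on C3aR1 and C5a on C5aR1 and C5aR2. Liver makes most plasma complement, while C1q and properdin come largely from myeloid cells, and injured tubule epithelium is a known local source of C3.

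Totals over genes were between 29318041 and 46517005 reads per library. At that depth, 3 reads correspond to 0.0645 to 0.102 CPM, a read count scaled to library size, which is far below every member. Mitochondrial transcripts took 5.03% to 8.77% of counts in Cre- controls and 10.4% to 12.1% in PTEC DN RAR mice. Markers of myeloid cells were present in every library, and the 25 pan-leukocyte genes summed to 16713 to 17579 CPM in Cre- controls and 13485 to 15809 CPM in PTEC DN RAR mice. Transcripts of other kidney cells were present as well and differed between the genotypes. The 16 proximal tubule markers summed to 750 to 964 CPM in Cre- controls and 2446 to 3842 CPM in PTEC DN RAR mice, and all 16 rose. The 5 markers of the thick ascending limb summed to 1007 to 1414 and 3506 to 6793 CPM, and the 7 endothelial markers to 77.1 to 117 and 228 to 278 CPM. The 7 tubular injury markers went the other way in their sum, 2081 to 2834 CPM in Cre- controls and 1232 to 1962 CPM with the recombined allele. Of these 7 genes, 2 were called lower, 1 higher and 4 neither, while 17.1% of all genes tested were called lower and 23.6% higher. None of these defining markers was at 0 in all libraries. Rara, whose counts do not check the recombined allele in these cells, averaged 42.0 ± 5.75 CPM among Cre- controls and 33.3 ± 3.72 CPM among mice with the recombined allele (SD, n = 3, edgeR adjusted p = 0.0628).

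The promoter windows of 2 neighbouring pairs of genes are shown because the values below set the genes of each pair side by side. C1qb and C1qc are adjacent genes for chains of one protein, and C5ar1 and C5ar2 are adjacent receptor genes of which C5ar1 fell. Sequences are read 5′ to 3′ on the strand of the gene, from RefSeq on GRCm38.p6. Those of C1qb, C5ar1 and C5ar2 hold the 250 bases before the RefSeq transcript start. The RefSeq starts of C1qc and C5ar1 lie inside the gene spans of GENCODE M21 given further on. The sequence of C1qc is therefore limited to the 99 bases before its GENCODE start, and 202 of the 250 bases of C5ar1, the match included, lie inside the GENCODE gene, mostly in its first intron. Capitals mark matches to the motifs named after them.

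C1qb (chr4:136886201-136886450, minus strand): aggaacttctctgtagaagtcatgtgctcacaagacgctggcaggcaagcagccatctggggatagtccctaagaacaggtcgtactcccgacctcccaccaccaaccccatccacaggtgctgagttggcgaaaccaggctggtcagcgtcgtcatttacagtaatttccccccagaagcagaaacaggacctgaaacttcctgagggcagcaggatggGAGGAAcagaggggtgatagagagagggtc
C1qc (chr4:136893066-136893164, minus strand): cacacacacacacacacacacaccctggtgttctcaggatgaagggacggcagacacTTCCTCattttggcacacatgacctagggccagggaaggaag
C5ar1 (chr7:16259339-16259588, minus strand): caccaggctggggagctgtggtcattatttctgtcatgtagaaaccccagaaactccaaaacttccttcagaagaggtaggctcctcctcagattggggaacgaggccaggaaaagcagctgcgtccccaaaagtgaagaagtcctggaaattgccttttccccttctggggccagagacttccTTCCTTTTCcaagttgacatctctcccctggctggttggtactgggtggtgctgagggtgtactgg
C5ar2 (chr7:16244155-16244404, minus strand): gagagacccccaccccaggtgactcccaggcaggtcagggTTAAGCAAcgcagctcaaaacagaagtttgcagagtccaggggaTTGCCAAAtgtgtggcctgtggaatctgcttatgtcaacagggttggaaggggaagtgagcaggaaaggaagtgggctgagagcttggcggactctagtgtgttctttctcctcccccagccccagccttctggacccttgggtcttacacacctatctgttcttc

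The letters searched on both strands were GAGGAA for PU.1, TTGCNNAA for C/EBP, TGANTCA for AP-1, GAAANNGAA for IRF, TGCTGAC for MAF and GGGANTTCC for NF-kB. RefSeq promoters that also include 50 bases after the start were found for 7 of the 9 members, with 8 windows in all, since C5ar2 has 2 starts. The C1qb window held GAGGAA 30 bases before the RefSeq start, from which all positions are counted, and the C1qc window held its reverse complement 193 bases before the start. The C5ar1 window held the IRF letters on the opposite strand at 66 bases before the start. The C5ar2 window printed above held the C/EBP letters at 166 and, on the opposite strand, at 210 bases before the start. Its other window held GAGGAA at 26 bases before its own start, and all 250 bases before that start lie inside the GENCODE gene. Among the remaining members, C3ar1 held the AP-1 letters at 22 bases before the start, C3 held the C/EBP letters at 45 bases before the start, and Cfp held the PU.1 letters on the opposite strand at 7 and 23 bases after it. No searched motif was matched in all of C3ar1, C5ar1 and Cfp, and the MAF and NF-kB letters were matched in none of the 8 windows. Of 32851 promoter windows of the same length, 28.3% held the PU.1 letters, 10.8% those for C/EBP, 8.56% those for IRF, 7.81% those for AP-1, 4.67% those for MAF and 1.68% those for NF-kB. The matches describe the sequence only.

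Between the genotypes, 3 of the 9 members fell, 1 rose and 5 did not pass the test. Cfp (properdin), C5ar1 and C3ar1 were lower in PTEC DN RAR mice, and C3 was higher. The C1q genes, C5ar2 and Cfb did not pass at an adjusted p of 0.05 in edgeR's quasi-likelihood test. Over all 15440 genes, 17.1% were called lower and 23.6% higher, so the single upward call among the members does not stand apart from all genes. Whether the 3 downward calls among 9 members exceed the share of all genes was not tested. Libraries of the genotypes did not overlap for the same 4 members, while 24.2% of all genes had every PTEC DN RAR library below every Cre- control library and 29.2% had every one above. The median log2 fold change of the members was -0.01, next to 0.04 for all genes. In bulk RNA, fewer cells of a type and less RNA per cell cannot be told apart, and this holds for every gene below.

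**Figure D1:**
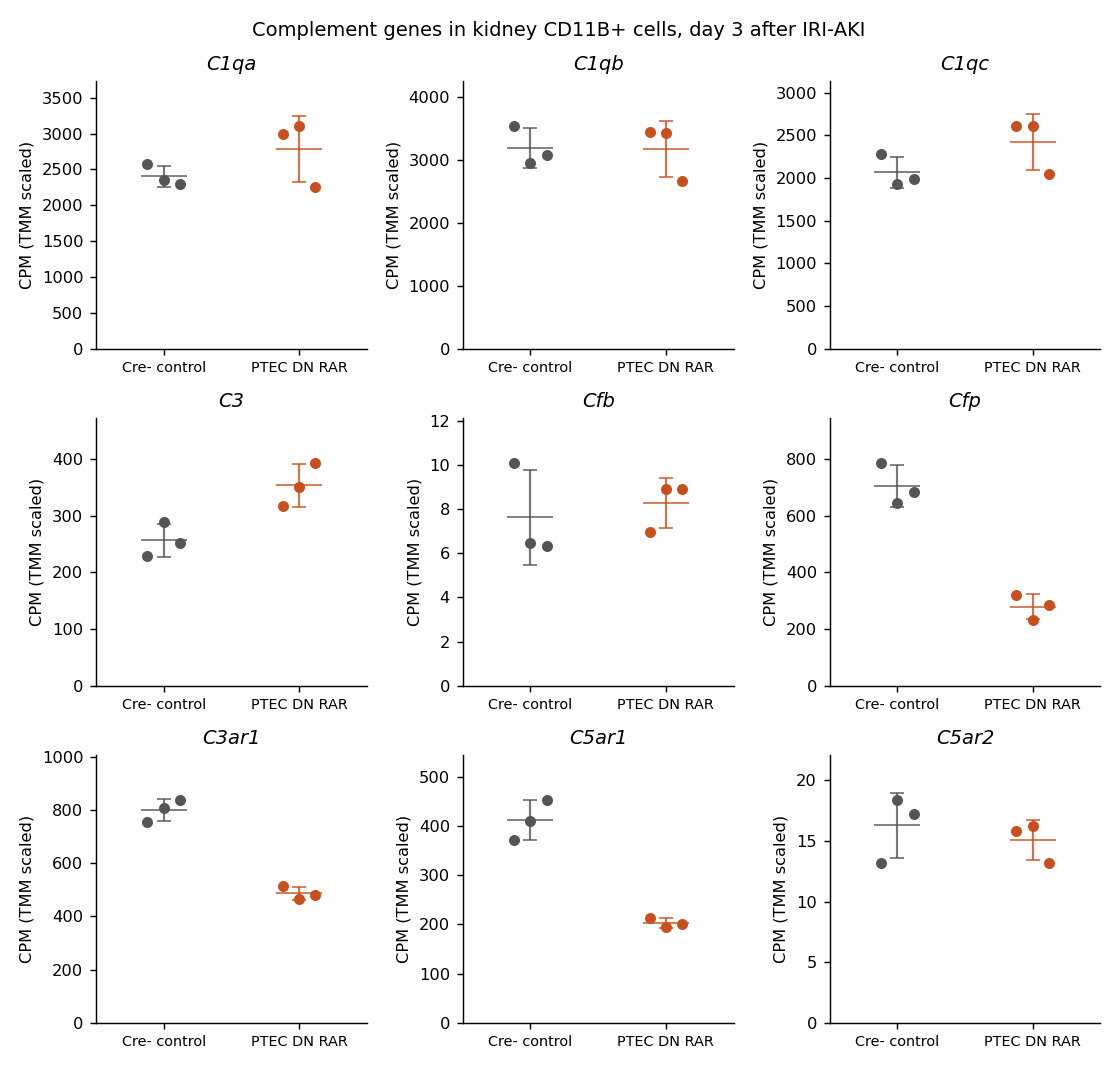
Abundance of the 9 complement genes in each library, in CPM after TMM scaling on axes that start at 0, for 3 Cre- control mice (grey) and 3 PTEC DN RAR mice (orange). Points are mice, and the horizontal and vertical lines give the mean and SD. The groups separate downward for Cfp, C3ar1 and C5ar1 and upward for C3, and overlap for the other 5 genes.

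Properdin is the one known protein that promotes the alternative pathway by holding its C3 convertase together. Cfp (ENSMUSG00000001128, chrX:20925454-20931555, minus strand, GRCm38) had 787, 644 and 682 CPM in the Cre- control mice and 319, 232 and 286 CPM among PTEC DN RAR mice. The highest PTEC DN RAR library was thus below the lowest control library. Means were 704 ± 73.8 and 279 ± 43.8 CPM (SD, n = 3), a ratio of 0.396 with a 95% interval from 0.320 to 0.491. The log2 fold change of -1.34 (SE 0.14, adjusted p = 0.0003) was the largest of the 9 members. Without 1 library at a time it ranged from -1.44 to -1.22, and it passed the test each time.

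The receptors for the anaphylatoxins split. C5ar1 (ENSMUSG00000049130, chr7:16246743-16259540, minus strand) encodes the signalling receptor for C5a that draws neutrophils and monocytes. It had 372, 411 and 453 CPM in the Cre- control mice and 213, 195 and 200 CPM among PTEC DN RAR mice, with a gap between the groups wider than the range of either. The log2 fold change was -1.02 (SE 0.10, adjusted p = 0.0003), with a ratio interval from 0.421 to 0.575. C5ar2 (ENSMUSG00000074361, chr7:16234585-16244154, minus strand) encodes the second C5a receptor, which does not couple to G proteins, and the annotated genes lie 2588 bp apart. C5ar2 had 13.2, 18.4 and 17.2 CPM in the Cre- control mice and 15.8, 16.2 and 13.2 CPM among PTEC DN RAR mice, and the groups overlapped. Its log2 fold change was -0.11 (SE 0.15, adjusted p = 0.596), and the ratio interval from 0.728 to 1.18 lies outside that of C5ar1. In the ratio of both genes, which needs no scaling between libraries, C5ar1 reads were 28.1, 22.4 and 26.3 times those of C5ar2 in the Cre- control mice and 13.5, 12.0 and 15.1 times in the PTEC DN RAR mice. This log2 ratio differed by -0.92 between genotypes without overlap, at the smallest exact permutation p that 3 mice against 3 allow (p = 0.1, two-sided), which cannot pass 0.05.

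C3ar1 (ENSMUSG00000040552, chr6:122847138-122856161, minus strand) encodes the receptor for C3a. It had 754, 806 and 837 CPM in the Cre- control mice and 513, 466 and 479 CPM among PTEC DN RAR mice. All 3 PTEC DN RAR libraries were below all control libraries, and the SDs of 42.0 and 24.4 CPM were small beside the difference of the means, 799 and 486 CPM. The log2 fold change was -0.72 (SE 0.09, adjusted p = 0.0008). C3ar1 therefore had a smaller point estimate than C5ar1, and the ratio of C3ar1 to C5ar1 was 2.03, 1.96 and 1.85 in the Cre- control mice and 2.41, 2.39 and 2.39 in the PTEC DN RAR mice. That ratio did not overlap between genotypes either (difference 0.30 on the log2 scale, exact permutation p = 0.1).

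Marker lists of blood-derived cells differed in direction, beside the 17.1% of all genes called lower and 23.6% called higher. The 8 infiltrating monocyte markers summed to 1972 to 2084 CPM in Cre- controls and 1112 to 1264 CPM in PTEC DN RAR mice, with 6 of 8 lower and none at 0 in all libraries. The 10 neutrophil markers, of which 8 could be tested, summed to 435 to 802 and 284 to 409 CPM, with 4 lower. The 8 resident macrophage markers summed to 7072 to 7323 and 6468 to 8020 CPM, with 3 lower and 1 higher. The 6 platelet markers, of which 4 could be tested, summed to 279 to 412 and 35.3 to 47.1 CPM, with 2 lower. The 6 NK cell markers, of which 5 could be tested, overlapped in their sums (9.44 to 18.6 and 5.70 to 10.5 CPM), with 1 lower. The 6 B cell markers, of which 5 could be tested, summed to 24.7 to 32.6 and 37.1 to 52.2 CPM, with 2 higher. The T cell markers had 1 of 4 tested genes higher, and the dendritic cell markers 1 of 6 lower and 2 higher. The part of these differences in the falls of Cfp, C5ar1 and C3ar1 was not tested.

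C3 encodes the central component of the cascade, whose cleavage yields C3a and C3b. C3 (ENSMUSG00000024164, chr17:57203970-57228136, minus strand) had 229, 288 and 252 CPM in the Cre- control mice and 318, 350 and 394 CPM among PTEC DN RAR mice. The lowest PTEC DN RAR library was above the highest control library. Means were 256 ± 29.8 and 354 ± 37.9 CPM (SD, n = 3), and the log2 fold change was 0.47 (SE 0.12, adjusted p = 0.0137), with a ratio interval from 1.15 to 1.66. This call did not hold in every fit that left out 1 mouse. It was lost without PTEC DN RAR replicate 3, which had the highest C3 (log2 fold change 0.34, adjusted p = 0.0624), and without Cre- control replicate 3 (0.41, adjusted p = 0.0758). The proximal tubule, thick ascending limb and endothelial markers given above were also higher in PTEC DN RAR mice, while the summed tubular injury markers were lower, and their part in the C3 difference was not tested. The ratio of C3 to C3ar1 reads was 0.304, 0.358 and 0.301 in the Cre- control mice and 0.619, 0.751 and 0.822 in the PTEC DN RAR mice.

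Factor B is the protease of the alternative C3 convertase. Cfb (ENSMUSG00000090231, chr17:34856374-34862518, minus strand) had 10.1, 6.44 and 6.34 CPM in the Cre- control mice and 6.98, 8.91 and 8.92 CPM among PTEC DN RAR mice, and the groups overlapped. The log2 fold change was 0.11 (SE 0.21, adjusted p = 0.693), with a ratio interval from 0.777 to 1.51. These counts may come from a small part of the gene. In GENCODE M21, 2246 of its 2825 exonic bases (79.5%) are shared with Gm20547, a protein-coding gene that also takes in C2, and reads in shared bases are not assigned to either gene by HTSeq in its usual setting. Gm20547 is listed in the count table with 0 counts in all 6 libraries, but the annotation release used for the counting is not given in the sources used here. If counted on the 579 unshared bases only, Cfb would have means of 13.2 and 14.3 RPKM, which is CPM per kilobase of exon, against 2.70 and 2.93 RPKM on all exonic bases. Its level is thus uncertain, while the comparison between genotypes uses the same bases in each library.

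C1qa (ENSMUSG00000036887, chr4:136895917-136898803), C1qb (ENSMUSG00000036905, chr4:136880129-136886187) and C1qc (ENSMUSG00000036896, chr4:136889804-136893065) lie side by side on the minus strand of chromosome 4, within 18.7 kb. C1qa had 2570, 2360 and 2291 CPM in the Cre- control mice and 2991, 3112 and 2251 CPM among PTEC DN RAR mice. C1qb had 3551, 2953 and 3083 CPM in the Cre- control mice and 3444, 3434 and 2669 CPM among PTEC DN RAR mice. C1qc had 2276, 1930 and 1989 CPM in the Cre- control mice and 2609, 2614 and 2047 CPM among PTEC DN RAR mice. For each chain the groups overlapped, and PTEC DN RAR replicate 3 was the lowest of its genotype. The log2 fold changes were 0.21 for C1qa (SE 0.14, adjusted p = 0.268), -0.01 for C1qb (SE 0.14, adjusted p = 0.978) and 0.23 for C1qc (SE 0.13, adjusted p = 0.199). Ratio intervals were 0.923 to 1.45 for C1qa, 0.797 to 1.24 for C1qb and 0.950 to 1.45 for C1qc. The data thus leave room for a rise of up to 1.45 times in C1qa and C1qc and 1.24 times in C1qb. They also leave room for a fall to 0.923 times in C1qa, 0.797 times in C1qb and 0.950 times in C1qc. C1q reads summed to 0.736% to 0.805% of all counts in Cre- controls and 0.707% to 0.910% in PTEC DN RAR mice. With libraries scaled on the pan-leukocyte genes, C1qa and C1qc passed the test as higher (log2 fold change 0.40, adjusted p = 0.0190, and 0.42, adjusted p = 0.0140), and that scaling moved the median of all genes from 0.04 to 0.23.

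The proportions of the 3 chains varied less between mice than their levels. C1qb reads were 1.56, 1.53 and 1.55 times those of C1qc in the Cre- control mice and 1.32, 1.31 and 1.30 times in the PTEC DN RAR mice. The log2 ratio fell from 0.63 to 0.39, a difference of -0.24 against SDs of 0.0143 and 0.00895, without overlap (exact permutation p = 0.1, the smallest possible). The ratio of C1qa to C1qb was 0.724, 0.799 and 0.743 in the Cre- control mice and 0.869, 0.906 and 0.844 in the PTEC DN RAR mice, again without overlap. C1qa relative to C1qc overlapped, with 1.13, 1.22 and 1.15 against 1.15, 1.19 and 1.10 (exact permutation p = 0.6). In share of C1q reads, C1qb made up 40.8% to 42.3% in Cre- controls and 37.5% to 38.3% in PTEC DN RAR mice. Whether a ratio of reads follows the ratio of full transcripts was not tested, since counts per exon were not used here. Summed C1q relative to the resident macrophage markers overlapped between genotypes (log2 difference 0.07, exact permutation p = 0.4).

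**Figure D2:**
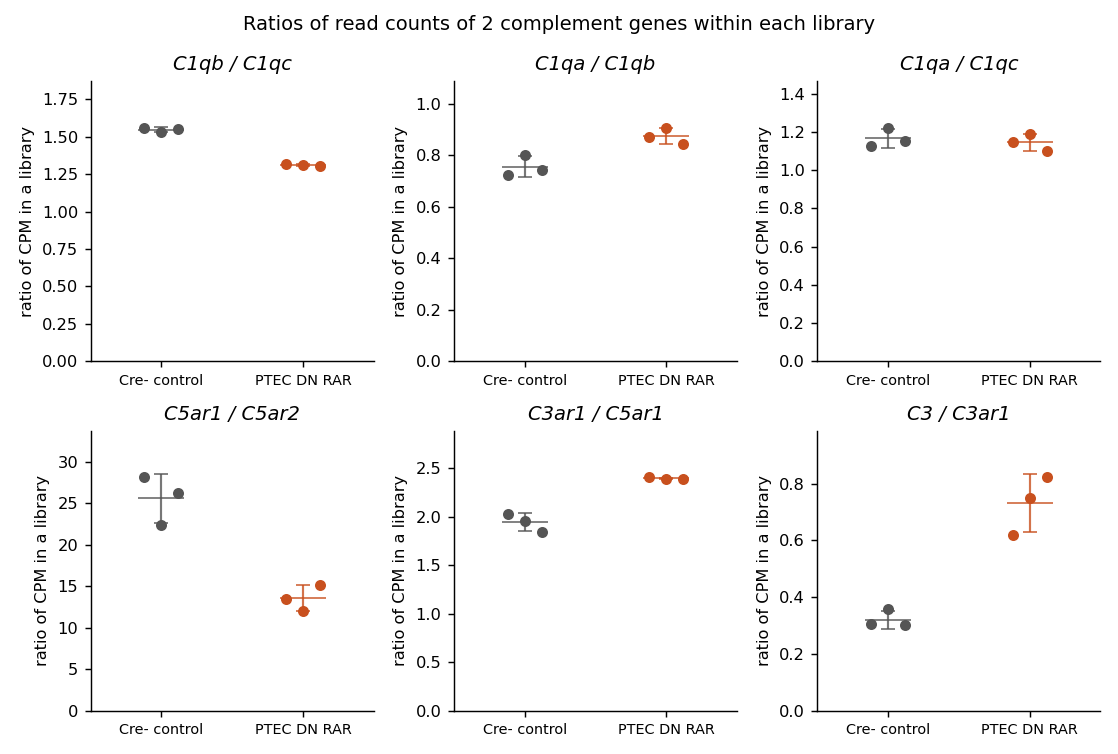
Ratios of the CPM of 2 complement genes within each library, on axes that start at 0, for 3 Cre- control mice (grey) and 3 PTEC DN RAR mice (orange), with the mean and SD as lines. C1qb relative to C1qc lies at 1.53 to 1.56 in controls and 1.30 to 1.32 in PTEC DN RAR mice, C5ar1 relative to C5ar2 at 22.4 to 28.1 and 12.0 to 15.1, and C1qa relative to C1qc overlaps.

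In all, 10 ratios were compared, and 7 did not overlap between genotypes (exact permutation p = 0.1, Benjamini-Hochberg adjusted p = 0.143 for each). Ratios of other genes were not computed, so this count has no share over all genes to be read against. Among single genes, 24.2% had every PTEC DN RAR library below every Cre- control library and 29.2% had every one above. The other ratios without overlap were C3 to C5ar1 (log2 difference 1.48), C3 to C3ar1 (1.18) and Cfb to Cfp (1.49), which follow from the members already described. The ratio of C3 to Cfb overlapped (exact permutation p = 0.5).

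Compared per length, the C1q chains were among the most abundant transcripts of these cells. Over the union of exons, C1qb had 2937 ± 289 RPKM in Cre- controls and 2925 ± 409 RPKM among PTEC DN RAR mice (SD, n = 3), and it ranked 11 to 15 of 15393 genes over the 6 libraries. C1qa had 2314 ± 140 and 2678 ± 448 RPKM with ranks of 13 to 17. C1qc followed with 1069 ± 96.0 and 1255 ± 169 RPKM, ranks 23 to 32, and this value depends on the length used, since the longest transcript in place of all exons gave means of 1716 and 2014 RPKM. The next levels in Cre- controls were those of Cfp at 406 ± 42.5, C3ar1 at 186 ± 9.75, C5ar1 at 160 ± 15.8 and C3 at 49.9 ± 5.79 RPKM. C5ar2, at 4.57 ± 0.761 RPKM, and Cfb were the lowest. Among neighbours in this order, the ranges of C3ar1 and C5ar1 overlapped in Cre- controls. In PTEC DN RAR mice Cfp had 161 ± 25.2, C3ar1 113 ± 5.66, C5ar1 79.0 ± 3.65 and C3 68.8 ± 7.37 RPKM. There the ranges of C1qb and C1qa and those of C5ar1 and C3 overlapped, whereas C3 had been clearly below C5ar1 in Cre- controls. C5ar2 had 4.23 ± 0.460 RPKM in that genotype.

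Further genes of the pathway were read from a list of 47, of which 27 passed the filter. Of these, 4 fell, 9 rose and 14 did not pass the test, with a median log2 fold change of 0.58 against 0.04 for all genes. The background shares are the 17.1% and 23.6% given above. Most of the rising genes were at low levels, and 5 genes of the list had no count in any library.

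Among the classical and lectin components, C1s1, the serine protease of the C1 complex, rose from 2.10, 1.85 and 1.71 CPM to 5.50, 8.53 and 4.20 CPM (log2 fold change 1.68, adjusted p = 0.0023). C1ra, its partner protease, fell from 8.97, 8.12 and 9.12 CPM to 6.36, 7.16 and 5.93 CPM (-0.43, adjusted p = 0.0363). C2 rose by 0.60 (adjusted p = 0.0107), with 42.8% of its exonic bases shared with Gm20547. C4b, one of 2 highly similar genes whose reads can be lost or split, had 86.4 ± 53.5 and 86.1 ± 49.1 CPM and did not pass. Fcna, the ficolin A gene of macrophages, fell from 12.0, 28.9 and 9.95 CPM to 4.68, 7.02 and 2.88 CPM (-1.80, adjusted p = 0.0123). C1ra and C1s1, which act in complex with C1q, stayed under 10 CPM in all libraries.

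Of the terminal components, C7 rose by 1.38 (adjusted p = 0.0146) and C8g by 1.34 (adjusted p = 0.0063), to means of 2.14 and 2.93 CPM, and C8g overlaps the neighbouring gene Fbxw5. Hc, the gene for C5, was at 0 to 1 read per library and was not tested. Of the soluble regulators, Serping1 (C1 inhibitor), Cfi (factor I) and Cpn1, which inactivates anaphylatoxins, rose. Serping1 went from 6.02, 5.57 and 5.01 CPM to 13.8, 19.5 and 7.65 CPM (1.30, adjusted p = 0.0094), Cpn1 rose by 1.30 (adjusted p = 0.0047) and Cfi by 0.77 (adjusted p = 0.0237). Among membrane regulators Cd59a, an inhibitor of the membrane attack complex, rose by 1.11 (adjusted p = 0.0049), and Cd59b, its paralog, by 1.04 (adjusted p = 0.0499). Cr1l, which encodes the rodent regulator Crry, had a log2 fold change of -0.21 (adjusted p = 0.0884). The 7 fibroblast markers summed to 61.1 to 73.5 and 60.9 to 164 CPM, and the part of these and the other kidney cell markers in the rises was not tested.

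Of the other complement receptors, Itgam and Cd93 fell. Itgam encodes CD11B itself, the alpha chain of complement receptor 3 and the protein used to capture the cells. It had 1737, 1959 and 1995 CPM in the Cre- control mice and 1366, 1303 and 980 CPM among PTEC DN RAR mice (log2 fold change -0.64, adjusted p = 0.0082). Itgb2, the beta chain that it pairs with, had 659 ± 55.2 and 628 ± 98.4 CPM, and its log2 fold change was -0.07 (adjusted p = 0.703). Itgax, the alpha chain of complement receptor 4, was at 262 ± 43.4 and 318 ± 64.1 CPM and did not pass (adjusted p = 0.215). Cd93, once described as a receptor for C1q, fell from 718, 770 and 838 CPM to 442, 402 and 436 CPM (-0.86, adjusted p = 0.0005). Vsig4, a receptor for C3b on resident macrophages, had 2.66, 7.95 and 1.14 CPM in the Cre- control mice and 1.29, 1.15 and 0 CPM among PTEC DN RAR mice, and the difference did not pass (adjusted p = 0.0933).

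**Figure D3:**
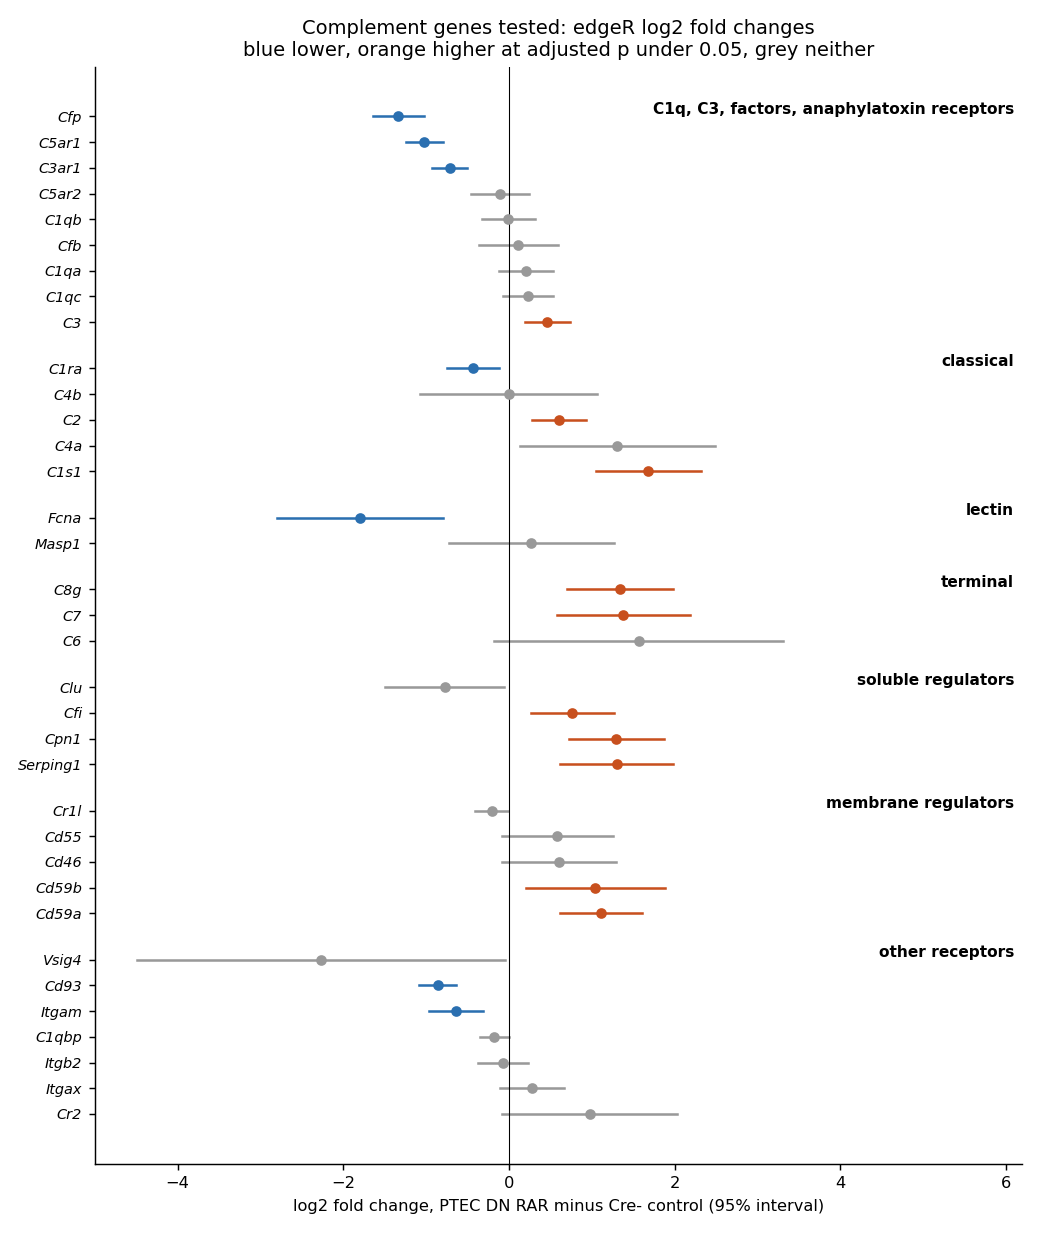
Log2 fold changes (PTEC DN RAR minus Cre- control, edgeR) with 95% intervals of the 9 members and of 26 of the 27 other complement genes tested, grouped by role. Blue genes were lower and orange genes higher at an adjusted p under 0.05, grey genes neither. Cfp, C5ar1 and C3ar1 lie below 0 beside Cd93 and Itgam, while the terminal components and soluble regulators hold only rising genes among those called.

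The genes closest to each member across the 6 libraries were found by the root mean square difference of log2 CPM centred on each gene's mean, among 8992 genes with at least 10 CPM on average. This is a description over 6 libraries of 2 genotypes, so the difference between genotypes enters the likeness. The nearest to C3ar1 were Btk (0.034), AI662270 and Cd44, and to C5ar1 Ikbke (0.075), Nlrp3 and Emilin2. The nearest to Cfp were Ccl9 (0.10), Dusp5 and Gla. C1qc lay closest to Camk1 (0.024), C1qb to Fcer1g (0.030) and C1qa to Rnf187 (0.041). C1qc was the 4th nearest gene to C1qa, and C1qa the 7th nearest to C1qc, whereas C1qb ranked 190 and 347 from them. C3 lay nearest to Ralgapa2 (0.047), C5ar2 to Ttpal (0.035) and Cfb to Jund (0.062).

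The calls for the 3 falls held under each of 15 other settings. These were other tests, filters and scalings, the replicate number as a term, and fits that each lacked 1 mouse. Across them the log2 fold change ranged from -0.76 to -0.52 for C3ar1, from -1.10 to -0.82 for C5ar1 and from -1.44 to -1.14 for Cfp. C1qb, C5ar2 and Cfb passed in no setting, and the sign of their log2 fold change was not the same in all of them.

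**Figure D4:**
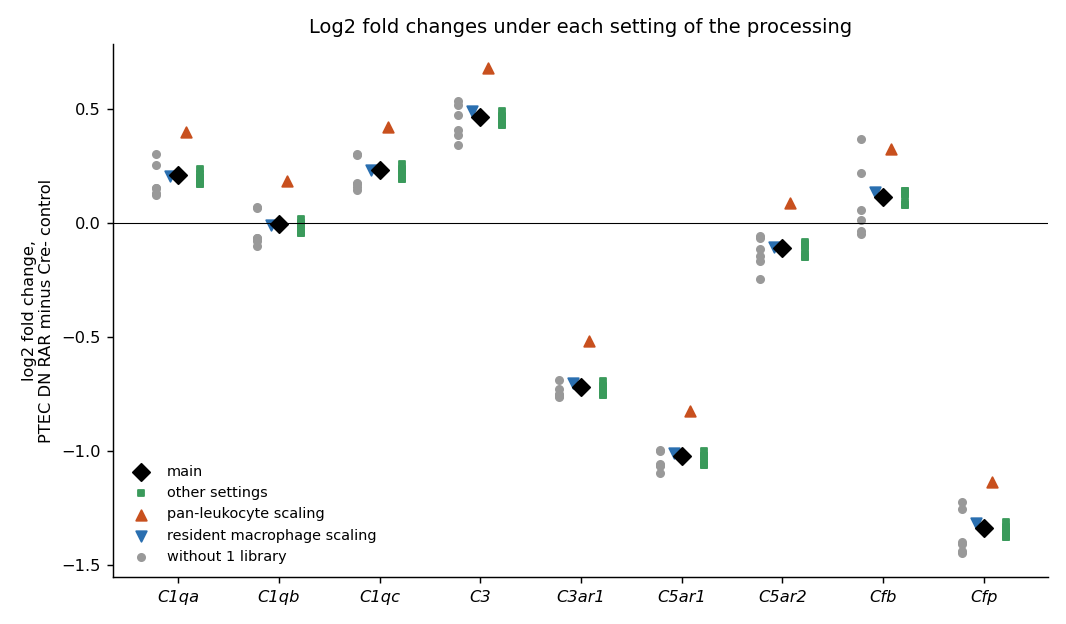
Log2 fold changes of the 9 members (PTEC DN RAR minus Cre- control) in the reported test (black diamonds) and in 15 other settings, which are other tests, filters and scalings and leaving out 1 library at a time. C3ar1, C5ar1 and Cfp stay below -0.5 and C3 above 0.3 in each, and the scaling on pan-leukocyte genes (triangles) gives higher values for all 9 than the reported test.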

How the data were processed

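RNA-Seq libraries of CD11B+ kidney cells from 3 PTEC DN RAR and 3 Cre- control mice were analysed. The authors deposited raw read counts per Ensembl gene. Per the labels, reads were processed with STAR 2.5.0a and HTSeq 0.6.1 on GRCm38, and edgeR and limma are named. Between 42.9% and 47.8% of the table's entries per library were alignments to more than 1 place, which HTSeq leaves out, so near-identical genes are undercounted. The annotation release and strand setting of the counting are not given in the sources used here. Of 46612 gene lines, 9 repeated an identifier and were collapsed, and 27 symbols turned into dates were restored. No column of another sample was present.

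In R 4.3.3, edgeR 4.0.16 served for the filter on low counts (filterByExpr), TMM scaling and the quasi-likelihood test of genotype (glmQLFit, glmQLFTest), and p-values were adjusted over 15440 genes by the Benjamini-Hochberg method. The SE is the log2 fold change divided by the square root of F. Ratios within libraries used log2 CPM with a prior count of 0.5 and two-sided exact permutation tests over 10 ratios. CPM per kilobase of exon (GENCODE M21) gave RPKM. Alternatives used DESeq2 1.42.0, limma 3.58.1, other filters and scalings, the replicate number, and leaving out each mouse. Tests were tried on simulated counts. Figures were drawn with Python 3.11 and matplotlib 3.10.9.

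The members and gene lists were chosen with earlier results of these data known. All 9 members are named. Of the other complement genes, Itgam, Itgb2, Itgax, Vsig4 and Cr1l are named, with the 12 of largest change among those with an adjusted p under 0.05 and a mean of at least 1 CPM. C4b, Cd59b and Hc were named after their values were seen. Genes outside this rule are given as counts, and 1 result is not reported here. Nearest genes are 3 per member at most. Libraries of 1 genotype differed by a chi-square per degree of freedom of at least 27.1, so each counted as a separate sample.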

Additional observations from a re-analysis of the deposited data

How the results depend on the processing

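The members called lower numbered 3 in each of the 15 alternatives. The number called higher was 3 with libraries scaled on the pan-leukocyte genes, where C1qa (log2 fold change 0.40) and C1qc (0.42) joined C3, and ranged from 0 to 1 when 1 mouse was left out. The log2 fold change of C3 then ranged from 0.34 to 0.53. Its call was lost without PTEC DN RAR replicate 3 and without Cre- control replicate 3 (0.41), both fits with fewer samples. Over all genes 748 were lower and 4738 higher with pan-leukocyte scaling and 1545 and 3201 with resident macrophage scaling, against 2636 and 3640. With the replicate block, 3 members were lower and 1 higher, and no member changed its call. Of the other complement genes, 3 to 6 were lower and 7 to 11 higher over the alternatives, with 5 and 9 under the replicate block. The deviations of mice with the same number correlated at -0.0147, 0.211 and 0.0286, of which only the second pair was above 0.1. Those of mice with different numbers ranged from -0.181 to 0.151. The numbers name different mice and were not taken to pair them. No member was limited by depth, while 20 of the 47 other complement genes were too low to test.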
